A study of Mus musculus with 24 samples.

Results

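C2C12 muscle tissues that had received light at 10 Hz were compared with unstimulated control tissues by bulk RNA sequencing (RNA-seq), 6 libraries against 6. These 12 libraries of the 24 in the series were chosen by their sample titles alone, and every gene that passed a filter on low counts was described. C2C12 is a mouse myoblast line that fuses into contractile fibers when it is differentiated, and all tissues, controls included, carried the ChR2::tdTomato genotype, in which a blue light-gated cation channel (channelrhodopsin) is tagged with a red fluorescent protein. Tissues grew on fibrin and were kept for about 2 weeks in horse serum medium with insulin-like growth factor. Per the study's methods, the medium was changed daily, shortly before the light. The 10 Hz tissues were lit for 30 min each day and the controls were not lit, so light as such and the contraction it drives cannot be told apart. The study saw spontaneous twitching in all conditions, so the controls were unlit but not necessarily at rest. It also proposes that 10 Hz tissues may have tired and not contracted for much of each session. All tissues came from 1 engineered mouse line, which limits what they represent of muscle. The remaining 12 libraries, of tissues lit at 1 or 4 Hz for the same time each day, shared the model fit and are used only where a gene named here is compared between frequencies.

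Contraction of a muscle fiber follows membrane depolarization and release of calcium from the sarcoplasmic reticulum, and the same calcium signal reaches the nucleus through calcineurin, calmodulin-dependent kinases, and MAP kinases. Immediate early genes encode transcription factors that are induced within minutes of such a stimulus, and phosphatases of the Dusp family are induced with them and switch MAP kinases off again. The study does not state the time from the last light session to RNA extraction, so the levels below cannot be placed within that course. Over longer times, repeated contraction of muscle is known for shifts in sarcomere proteins, in oxidative enzymes of the mitochondrion, in defense against oxidants, and in secreted factors called myokines.

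Depth and composition were compared first. Control libraries held 4.19 to 7.65 M counts (M, 1000000) and 10 Hz libraries held 5.41 to 12.1 M, a higher mean at 10 Hz (2-sided exact permutation p = 0.0455) that did not pass 0.05 after Benjamini-Hochberg (BH) adjustment over 4 composition measures (adjusted p = 0.165). The share of small RNAs without a poly(A) tail was 102 to 171 counts per 1000000 counts (CPM) in control and spread from 39.1 to 277 CPM at 10 Hz (exact permutation p = 0.848). Within the 10 Hz group it was 39.1 to 101 CPM in replicates 4, 5, and 6 and 113 to 277 CPM in replicates 1, 2, and 3. Genes of the mitochondrial genome took 2.60 ± 0.441% of counts in control and 3.34 ± 0.882% at 10 Hz (SD, n = 6 each, exact permutation p = 0.0823, BH adjusted p = 0.165). All 16 markers of skeletal muscle fibers passed the filter, and their summed level was 10166 to 12711 CPM in control and 10606 to 16445 CPM at 10 Hz (exact permutation p = 0.0455). All 8 markers of undifferentiated myoblasts passed it too, with a summed level of 1155 to 1514 CPM in control and 1306 to 1678 CPM at 10 Hz (exact permutation p = 0.232). Of 6 endothelial markers 0 passed the filter, with summed levels of 0.583 to 2.15 CPM over the 12 libraries and Tie1 and Emcn at 0 in all of them. Summed macrophage markers were 78.2 to 126 CPM in control and 74.1 to 101 CPM at 10 Hz, with Ptprc at 0 in all 12, and Lyz2, Itgam, and Adgre1 under the filter. Of 7 fibroblast markers 4 were tested (summed 186 to 370.4 CPM in control and 193 to 241 CPM at 10 Hz), and 1 each of 8 adipocyte, 6 osteoblast, and 7 neuron and glia markers, with the adipocyte sum at 8.40 to 11.4 CPM in control and 8.15 to 10.5 CPM at 10 Hz (exact permutation p = 0.0455). Marker lists other than those of fibers and adipocytes had exact permutation p-values of 0.11 to 0.788. The p-values of marker sums were not adjusted over the lists. By the test used below, 0 markers of these other cell types were called.

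The question asked of these 12 libraries was which genes daily 10 Hz stimulation raised or lowered. Genes were tested with edgeR's quasi-likelihood test, and a gene is called higher or lower here where the BH adjusted p was below 0.05 and the log2 fold change exceeded 0.5 in size. Of 13318 genes tested, 165 were higher at 10 Hz (1.24%) and 83 were lower (0.623%), and 2750 had an unadjusted p below 0.05. Over all genes the log2 fold change had a median of -0.01, and 48.9% of values were above 0. A full separation of the groups, with all 6 libraries at 10 Hz beyond all 6 controls, was met by 56 of the genes called higher and 28 of those called lower, and by 171 and 173 of all genes tested. The split leaned to higher genes (66.5% of calls) and turned over on the log2(TPM + 1) scale, where limma called 77 higher and 157 lower (32.9% higher), while scaling by total count gave 139 higher and 106 lower (56.7% higher). A fit of the 12 libraries alone gave 97 higher and 49 lower. Leaving out control replicate 2 gave 105 and 42, and leaving out 10 Hz replicate 6 gave 92 higher.

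**Figure D1:**
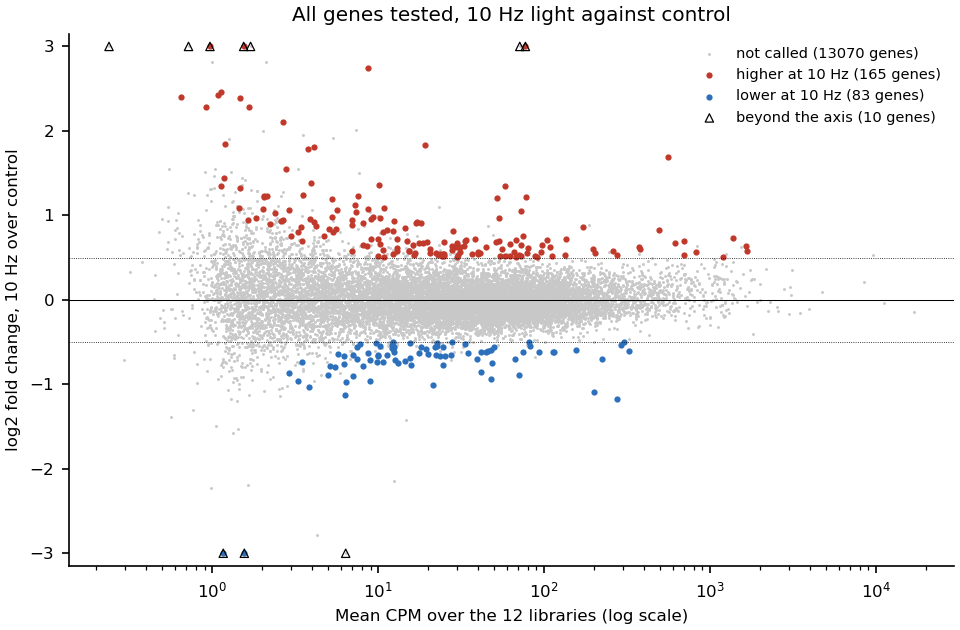
Log2 fold change at 10 Hz over control (y axis) against the mean level over the 12 libraries in CPM (x axis, log scale), 1 point per gene tested. The 165 genes called higher and 83 called lower are colored, dotted lines mark a log2 fold change of 0.5 either way, and triangles mark 10 genes beyond the axis.

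In a principal component analysis of the 500 most variable genes, the first component (15.8% of variance) separated the groups. Scores averaged -9.48 ± 8.57 in control and 9.48 ± 3.14 at 10 Hz (SD, n = 6 each), and no 10 Hz library overlapped a control (2-sided exact permutation p = 0.00216, the smallest that 6 against 6 libraries allow). Control replicate 5 stood at -25.6, with the other controls between -10.5 and -1.79. Without that library the difference between the groups on the first component was 1.98 in place of 18.95 (exact permutation p = 0.842), and it was 12.9 without 10 Hz replicate 4 (exact permutation p = 0.0693) and 13.6 without 10 Hz replicate 6 (exact permutation p = 0.0628). Components were computed anew each time and only the new first was compared, so a group difference that moved to another component would be missed. These values therefore do not show that the separation rests on 1 library. With all 12 libraries the second component held 14.9% of the variance, and its difference did not pass the test (exact permutation p = 0.942).

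**Figure D2:**
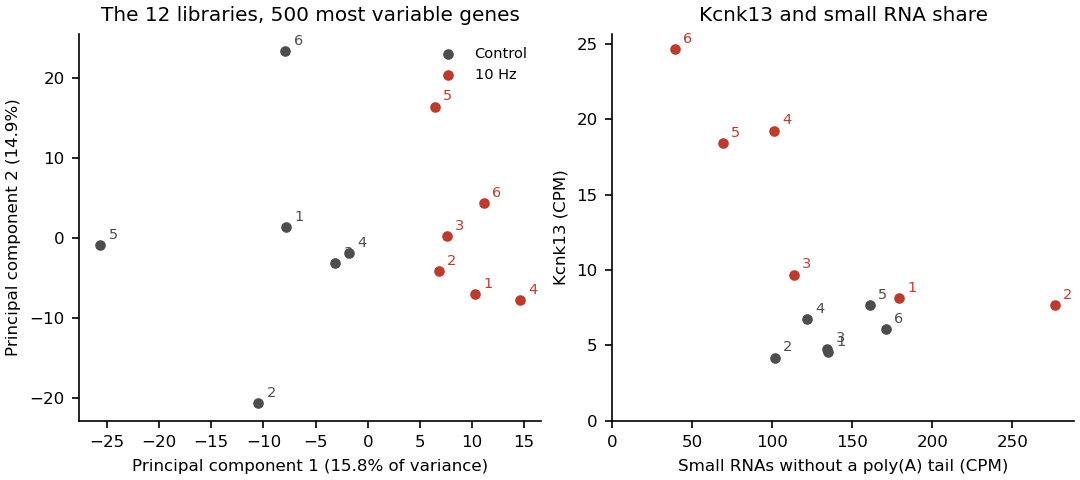
Left, scores of the 6 control (gray) and 6 10 Hz libraries (red) on principal components 1 and 2 of the 500 most variable genes, numbered by replicate. Right, the level of Kcnk13 (CPM, y axis) against small RNAs without a poly(A) tail (CPM, x axis) in the same libraries. Control replicate 5 lies at -25.6 on component 1, and Kcnk13 at 10 Hz lies at 18.4 to 24.7 CPM in replicates 4 to 6 and at 7.69 to 9.70 CPM in replicates 1 to 3.

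Ccn1, Egr1, Trib1, and Dusp1, genes known to respond to growth factor signals, were among the 12 genes named for the largest falls. Positions are those of the GENCODE M39 annotation of GRCm39, exons are those of the canonical transcript, and levels are CPM with TMM-scaled library sizes, given as lowest, highest, and median of 6 libraries per group. In all 24 genes named for the size of their change, the 6 libraries at 10 Hz did not overlap the 6 controls, because the naming rule asked for it. Ccn1 (ENSMUSG00000028195, chromosome 3, 145352720 to 145355738, minus strand, 5 exons), a secreted matricellular protein and a target of the coactivator YAP, ranged over 311 to 425 CPM in control (median 383) and 105 to 237 CPM at 10 Hz (median 160.0). The highest 10 Hz library thus lay well below the lowest control, and the log2 fold change was -1.18 ± 0.17 (SE, adjusted p = 0.000461). Egr1 (ENSMUSG00000038418, chromosome 18, 34992876 to 34998049, plus strand, 2 exons), a zinc finger transcription factor and a standard immediate early gene, was at 227 to 356 CPM in control (median 258) and 102 to 189 CPM at 10 Hz (median 121). Replicate 3 was the high library of the 10 Hz group and the other 5 lay at or below 129 CPM, for a log2 fold change of -1.09 ± 0.13 (SE, adjusted p = 5.03e-05). Trib1 (ENSMUSG00000032501, chromosome 15, 59520147 to 59528948, plus strand, 3 exons), a pseudokinase that binds MAP kinase kinases, was at 50.0 to 79.5 CPM in control (median 63.0) and 23.6 to 42.7 CPM at 10 Hz (median 33.4). Its 6 lit libraries were all lower than the controls, with a log2 fold change of -0.93 ± 0.15 (SE, adjusted p = 0.000685). Dusp1 (ENSMUSG00000024190, chromosome 17, 26724564 to 26781102, minus strand, 4 exons), a phosphatase that inactivates MAP kinases, was at 78.7 to 111 CPM in control (median 92.3) and 34.99 to 66.2 CPM at 10 Hz (median 50.6), again without overlap, and its log2 fold change was -0.89 ± 0.12 (SE, adjusted p = 0.000311). The lit libraries of Ccn1, Trib1, and Dusp1 were not uniform, and those of replicates 4 to 6 all lay below those of replicates 1 to 3. Egr1 had no such split. Replicates 4 to 6 also had the lowest small RNA share, whose part in the split was not tested.

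Of 32 immediate early genes tested, 6 were lower and 1 was higher, 25 had values below 0, and the list's median log2 fold change was -0.18, against -0.01 for all genes. Over all genes 0.623% were lower, 1.24% were higher, and 48.9% of values lay above 0. List counts here and below are to be read against these shares. Fos, the partner of Jun in the AP-1 factor, fell from 28.9 ± 5.72 to 14.2 ± 7.99 CPM (SD, n = 6 each here and below), log2 fold change -1.01, adjusted p = 0.0174, with 5 of 6 lit libraries below every control. At 10 Hz Fos was at 17.5 to 24.4 CPM in replicates 1 to 3 and 6.96 to 7.37 CPM in replicates 4 to 6. Klf6 and Jun were also all lower in replicates 4 to 6, while these sets of replicates overlapped for Egr2, Csrnp1, and Btg1. Egr2, a paralog of Egr1, fell from 16.5 ± 4.77 to 9.84 ± 2.61 CPM (log2 fold change -0.75, adjusted p = 0.0147), Klf6 from 389 ± 58.8 to 256 ± 79.0 CPM (log2 fold change -0.60, adjusted p = 0.0221), and Csrnp1 from 59.6 ± 7.16 to 40.3 ± 7.53 CPM (log2 fold change -0.56, adjusted p = 0.00736). Btg1, an antiproliferative gene, lay close to the fold threshold (log2 fold change -0.50, adjusted p = 0.00621) and was not called in 7 of the 12 fits that left out 1 library, where its adjusted p reached 0.0205 at most. Jun just missed that threshold (log2 fold change -0.50, adjusted p = 0.00462), with 138 to 186 CPM at 10 Hz and 189 to 262 CPM in control and no overlap. The 1 member that rose was Klf10, a transforming growth factor beta-responsive factor (log2 fold change 0.56, adjusted p = 0.0136). Junb (log2 fold change 0.17, adjusted p = 0.564), Nr4a1 (log2 fold change 0.05, adjusted p = 0.853), and Arc (log2 fold change 0.43, adjusted p = 0.174) did not pass the test. The calls on Fos and Egr2 were lost without control replicate 2 (log2 fold change -0.91, adjusted p = 0.0601 for Fos and log2 fold change -0.58, adjusted p = 0.0687 for Egr2), that on Klf6 without control replicate 3 (log2 fold change -0.54, adjusted p = 0.0526) or 10 Hz replicate 4 (log2 fold change -0.52, adjusted p = 0.0642) or 6 (log2 fold change -0.53, adjusted p = 0.062). That on Csrnp1 was lost by its fold without 10 Hz replicate 5 (log2 fold change -0.50, adjusted p = 0.0207), and that on Klf10 without 10 Hz replicate 5 (log2 fold change 0.41, adjusted p = 0.0389) or 6 (log2 fold change 0.48, adjusted p = 0.0442). In the fit of the 12 libraries alone the calls on Fos (adjusted p = 0.0615), Egr2 (log2 fold change -0.75, adjusted p = 0.0572), Klf6 (log2 fold change -0.60, adjusted p = 0.0512), Klf10, and Btg1 were lost, and that on Egr2 was lost with thinned counts. That on Klf10 was also lost on the TPM scales (log2 fold change 0.39, adjusted p = 0.0909 on log2(TPM + 1)) and with the small RNA (log2 fold change 0.44, adjusted p = 0.0125) or mitochondrial share as a covariate, and that on Csrnp1 with the mitochondrial share (log2 fold change -0.45, adjusted p = 0.00686). DESeq2 with apeglm, the method of the study, did not call Klf10, Csrnp1, or Btg1.

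Feedback inhibitors of MAP kinase signaling had a median log2 fold change of -0.24, with 3 of 22 lower, 1 higher, and 18 below 0. The shares over all genes were 0.623% lower and 1.24% higher. Besides Trib1 and Dusp1, the third to fall was Dusp6, a phosphatase of the kinase ERK, from 57.9 ± 6.13 to 37.99 ± 15.6 CPM (log2 fold change -0.60, adjusted p = 0.0404). Its call was lost in 8 of the 12 fits without 1 library (adjusted p up to 0.0984) and in that of the 12 libraries alone. Dusp2, a phosphatase of the same family, rose from 9.82 ± 2.27 to 16.3 ± 4.32 CPM (log2 fold change 0.72, adjusted p = 0.00935). Of 22 YAP and TEAD targets, Ccn1 was lower, Cavin2, a coat protein of caveolae, was higher (log2 fold change 0.72, adjusted p = 0.000942), and 11 values lay on each side of 0. The related genes Ccn2 (log2 fold change -0.32, adjusted p = 0.247) and Ankrd1 (log2 fold change 0.10, adjusted p = 0.726) did not pass, and of 19 cytoskeletal targets of the factor SRF 0 were called, with a median of -0.01. Every alternative setting tried kept the medians of the immediate early (-0.28 to -0.09) and MAP kinase feedback lists (-0.34 to -0.11) below 0.

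Promoter sequences were sought for 3 genes with the largest falls that belong to these 3 lists, Ccn1, Trib1, and Dusp1. The aim was to show what lies in front of genes that moved together. RefSeq's table (GRCm38.p6) held promoters for Ccn1 and Dusp1 but not for Trib1. The 250 bases before each start are given 5′ to 3′ on the gene's own (minus) strand, chr3:145649986-145650235 for Ccn1 and chr17:26508473-26508722 for Dusp1, with motif matches in capitals.
Ccn1: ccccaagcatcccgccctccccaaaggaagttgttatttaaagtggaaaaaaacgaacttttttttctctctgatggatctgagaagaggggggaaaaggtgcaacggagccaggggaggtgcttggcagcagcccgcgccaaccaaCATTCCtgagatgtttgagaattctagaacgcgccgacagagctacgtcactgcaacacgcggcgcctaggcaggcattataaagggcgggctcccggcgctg
Dusp1: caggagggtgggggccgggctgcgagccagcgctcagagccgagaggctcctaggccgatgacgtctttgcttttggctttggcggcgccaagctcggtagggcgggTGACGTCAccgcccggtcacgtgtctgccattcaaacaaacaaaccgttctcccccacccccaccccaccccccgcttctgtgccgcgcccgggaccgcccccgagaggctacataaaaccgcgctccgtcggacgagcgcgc

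The motifs searched, on both strands of 250 bases before to 50 after the start, were the CArG box of SRF, TEAD GGAATG, AP-1 TGANTCA, the cAMP response element (CRE) TGACGTCA, and the E-box CAGCTG of the myogenic factors. The Ccn1 promoter had 1 match, TEAD on the opposite strand, 103 to 98 bases before the start, and the Dusp1 promoter had 1, a CRE 143 to 136 bases before it. Among all 32851 promoters of that table, 14.7% held the TEAD letters, 1.79% the CRE, 1.63% a CArG box, 7.81% the AP-1 letters, and 16.3% the E-box. These matches describe the letters of the windows and were not tested as sites. Egr1, also among these falls and lists, was left out of the search when its genes were chosen. Its promoter was not read, so the search says nothing of its motifs, the CArG box included.

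Other falls were in receptors, adhesion proteins, and transcription factors. Ret (ENSMUSG00000030110, chromosome 6, 118128706 to 118174769, minus strand, 19 exons), the receptor tyrosine kinase of glial cell line-derived neurotrophic factor and its relatives, was at 7.14 to 10.0 CPM in control (median 8.99) and 2.29 to 5.81 CPM at 10 Hz (median 4.03). Every lit library was lower than every control, with a log2 fold change of -1.12 ± 0.19 (SE, adjusted p = 0.000942). Mertk (ENSMUSG00000014361, chromosome 2, 128540729 to 128645080, plus strand, 19 exons), a receptor tyrosine kinase known for the uptake of dying cells, was at 9.27 to 15.1 CPM in control (median 11.4) and 4.30 to 8.37 CPM at 10 Hz (median 5.84) and had a log2 fold change of -0.97 ± 0.16 (SE, adjusted p = 0.000854). Adora2b (ENSMUSG00000018500, chromosome 11, 62139804 to 62157279, plus strand, 2 exons), a receptor for adenosine, was at 10.2 to 16.4 CPM in control (median 11.7) and 6.42 to 8.15 CPM at 10 Hz (median 7.43). The 10 Hz libraries of Adora2b lay close together and below all controls, at a log2 fold change of -0.74 ± 0.13 (SE, adjusted p = 0.0018). Igsf11 (ENSMUSG00000022790, chromosome 16, 38713033 to 38847521, plus strand, 7 exons), an adhesion molecule of the immunoglobulin superfamily, was at 7.89 to 12.3 CPM in control (median 10.7) and 4.05 to 7.84 CPM at 10 Hz (median 5.60), which left only a narrow gap between the groups, and its log2 fold change was -0.79 ± 0.19 (SE, adjusted p = 0.0134).

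Nedd9 (ENSMUSG00000021365, chromosome 13, 41463057 to 41640838, minus strand, 7 exons), a scaffold protein of focal adhesions, was at 48.1 to 73.0 CPM in control (median 60.7) and 30.4 to 38.9 CPM at 10 Hz (median 37.8). Its spread at 10 Hz was small, and the log2 fold change of -0.74 ± 0.09 (SE, adjusted p = 7.36e-05) had the smallest SE of the 24 genes. Klf7 (ENSMUSG00000025959, chromosome 1, 64068606 to 64161508, minus strand, 4 exons), a Krüppel-like transcription factor, was at 42.5 to 75.6 CPM in control (median 50.0) and 24.6 to 36.0 CPM at 10 Hz (median 28.7) and had a log2 fold change of -0.85 ± 0.13 (SE, adjusted p = 0.000603). Mecom (ENSMUSG00000027684, chromosome 3, 30005439 to 30602157, minus strand, 16 exons), a zinc finger regulator of transcription best known from blood stem cells, was at 6.26 to 9.83 CPM in control (median 7.76) and 3.41 to 6.05 CPM at 10 Hz (median 4.47). The groups of Mecom were separated by a small gap (log2 fold change -0.76, adjusted p = 0.0205), and the call was lost without control replicate 2 (log2 fold change -0.73, adjusted p = 0.0523) or 10 Hz replicate 4 (log2 fold change -0.69, adjusted p = 0.0567) or 6 (log2 fold change -0.69, adjusted p = 0.0534). Bdnf (ENSMUSG00000048482, chromosome 2, 109505045 to 109557475, plus strand, 2 exons), a neurotrophin that muscle also makes, was at 12.1 to 25.9 CPM in control (median 15.8) and 9.39 to 11.6 CPM at 10 Hz (median 11.3). All 6 lit libraries of Bdnf lay within a narrow band just under the lowest control, and the log2 fold change was -0.73 ± 0.16 (SE, adjusted p = 0.00916).

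**Figure D3:**
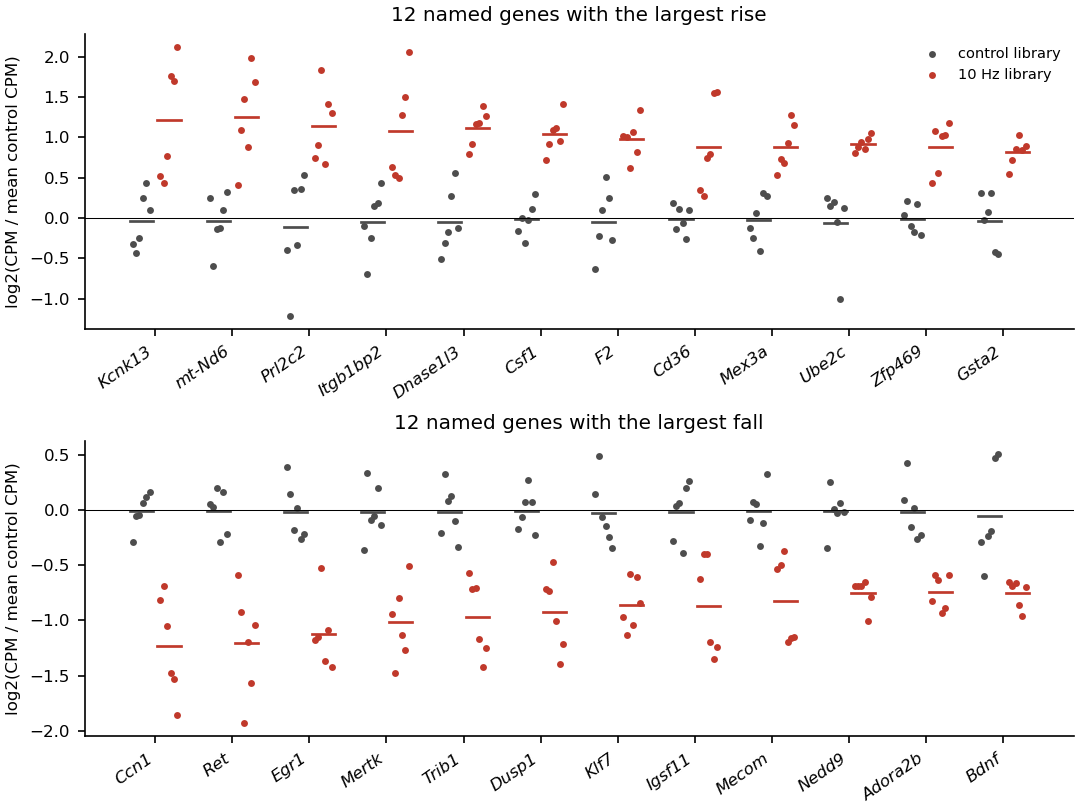
Level of each of the 24 named genes in each control (gray) and 10 Hz library (red), as log2 of CPM over the control mean (y axis), with 1 point per library and a bar at the mean of the points. Within each gene the red and gray points do not overlap, and the control means sit near 0.

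The 12 genes named for the largest rises included a channel, secreted proteins, and enzymes. Kcnk13 (ENSMUSG00000045404, chromosome 12, 99924948 to 100028942, plus strand, 3 exons), a tandem pore potassium channel, was at 4.19 to 7.67 CPM in control (median 5.43) and 7.69 to 24.7 CPM at 10 Hz (median 14.1). The lowest lit library was barely above the highest control, and the log2 fold change was 1.36 ± 0.25 (SE, adjusted p = 0.00208). Its 10 Hz libraries fell into a lower 3 and a higher 3, replicates 4 to 6, which are also those with the lowest small RNA share, and with that share as a covariate its values were a log2 fold change 1.13, adjusted p = 0.00142. With the same covariate 8 other genes named in the text lost their call: Btg1, Casq2, Ddit4, Klf10, mt-Cytb, mt-Nd1, Phgdh, and Tnnc1. Prl2c2 (ENSMUSG00000079092, chromosome 13, 13170710 to 13179968, minus strand, 5 exons), a proliferin, which is a placental relative of prolactin, was at 20.5 to 68.8 CPM in control (median 48.9) and 75.1 to 169.6 CPM at 10 Hz (median 103), a log2 fold change of 1.21 ± 0.22 (SE, adjusted p = 0.00189). Its near-identical copies Prl2c3 (log2 fold change 0.88, adjusted p = 0.0536) and Prl2c5 (log2 fold change 1.11, adjusted p = 0.0633) did not pass the test, and reads may be split among the copies. Csf1 (ENSMUSG00000014599, chromosome 3, 107648364 to 107667806, minus strand, 9 exons), the macrophage colony-stimulating factor, was at 38.1 to 57.8 CPM in control (median 46.7) and 77.5 to 126 CPM at 10 Hz (median 95.8). The 10 Hz libraries of Csf1 lay clear of the controls, and the log2 fold change was 1.06 ± 0.16 (SE, adjusted p = 0.000573). Dnase1l3 (ENSMUSG00000025279, chromosome 14, 14475200 to 14505240, plus strand, 8 exons), a secreted nuclease that digests DNA of dead cells, was at 3.22 to 6.74 CPM in control (median 4.13) and 7.91 to 11.97 CPM at 10 Hz (median 10.3), with a log2 fold change of 1.13 ± 0.16 (SE, adjusted p = 0.000443). F2 (ENSMUSG00000027249, chromosome 2, 91455662 to 91466807, minus strand, 14 exons), which encodes prothrombin, was at 2.27 to 5.01 CPM in control (median 3.40) and 5.42 to 8.96 CPM at 10 Hz (median 7.13), low levels that were apart by a small gap (log2 fold change 0.98, adjusted p = 0.00346).

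Itgb1bp2 (ENSMUSG00000031312, chromosome X, 100492665 to 100508645, plus strand, 11 exons), a chaperone-like protein of striated muscle known as melusin, was at 19.5 to 42.5 CPM in control (median 32.1) and 44.2 to 131 CPM at 10 Hz (median 62.6). Like Kcnk13 it had its 3 highest values in replicates 4 to 6 (lowest 76.3 CPM), and the log2 fold change was 1.21 ± 0.21 (SE, adjusted p = 0.00119). Cd36 (ENSMUSG00000002944, chromosome 5, 17986432 to 18094067, minus strand, 15 exons), a fatty acid transporter of muscle and fat, was at 30.4 to 41.4 CPM in control (median 37.0) and 44.1 to 107 CPM at 10 Hz (median 62.0), with a log2 fold change of 0.96 ± 0.21 (SE, adjusted p = 0.0068). Gsta2 (ENSMUSG00000057933, chromosome 9, 78238292 to 78263077, minus strand, 7 exons), a glutathione S-transferase, was at 15.1 to 25.4 CPM in control (median 20.9) and 30.0 to 41.9 CPM at 10 Hz (median 37.0) with no overlap (log2 fold change 0.81, adjusted p = 0.0015). Its close copy Gsta1 rose as well (log2 fold change 0.71, adjusted p = 0.00314), and the share of each in the reads is uncertain. Ube2c (ENSMUSG00000001403, chromosome 2, 164611768 to 164620742, plus strand, 6 exons), a ubiquitin-conjugating enzyme of the anaphase-promoting complex, was at 2.79 to 6.62 CPM in control (median 6.14) and 9.76 to 11.6 CPM at 10 Hz (median 10.5), with 1 low control, replicate 5, and a log2 fold change of 0.91 ± 0.17 (SE, adjusted p = 0.00253). Ube2c was not called on the TPM scales (log2 fold change 0.45, adjusted p = 0.115 by limma on log2(TPM + 1)), and of 26 cell cycle genes 0 were called (median -0.02).

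Mex3a (ENSMUSG00000074480, chromosome 3, 88439702 to 88448703, plus strand, 2 exons), an RNA-binding protein, was at 9.02 to 14.9 CPM in control (median 11.7) and 17.3 to 29.1 CPM at 10 Hz (median 21.4) (log2 fold change 0.92, adjusted p = 0.000935). Zfp469 (ENSMUSG00000043903, chromosome 8, 122985359 to 122999389, plus strand, 2 exons), a zinc finger protein linked to collagen of the cornea, was at 10.9 to 14.6 CPM in control (median 12.3) and 16.9 to 28.4 CPM at 10 Hz (median 25.6) (log2 fold change 0.90, adjusted p = 0.00597) and was not called on the TPM scales (log2 fold change 0.33, adjusted p = 0.303 on log2(TPM + 1)).

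Contractile genes were then described by group. Of 37 sarcomere proteins tested, 4 were higher, 0 were lower, and 35 had values above 0, with a median log2 fold change of 0.30 (0.15 to 0.38 over all alternatives). Over all genes 1.24% were higher, 0.623% were lower, and 48.9% of values lay above 0. In bulk RNA a higher level of these genes can come from more fibers or from more RNA per fiber, and the 2 cannot be told apart. Myh3, the embryonic myosin heavy chain, was at 238 to 540.0 CPM in control (median 327) and 467 to 1041 CPM at 10 Hz (median 571). The groups overlapped, with 3 of 6 lit libraries above every control and replicate 6 highest, and the log2 fold change was 0.82 ± 0.19 (SE, adjusted p = 0.0123). At 10 Hz Myh3 was at 467 to 536 CPM in replicates 1 to 3, within the range of the controls, and at 607 to 1041 CPM in replicates 4 to 6. Mylpf, a regulatory light chain of fast fibers, rose from 1352 ± 189.7 to 2011 ± 443 CPM (log2 fold change 0.57, adjusted p = 0.0106), Mybph, a myosin-binding protein, from 528 ± 88.4 to 859 ± 319 CPM (log2 fold change 0.70, adjusted p = 0.0194), and Tnnc1, the slow and cardiac troponin C, from 989 ± 102 to 1410.2 ± 203 CPM (log2 fold change 0.51, adjusted p = 0.00451). For Mylpf and Mybph replicates 4 to 6 also all lay above replicates 1 to 3 at 10 Hz, while these sets overlapped for Tnnc1. The adult and neonatal heavy chains did not pass the test: Myh1 at 0.31 (adjusted p = 0.442), Myh2 at 0.32 (adjusted p = 0.366), Myh4 at -0.14 (adjusted p = 0.74), Myh7 at 0.21 (adjusted p = 0.603), and Myh8 at 0.32 (adjusted p = 0.33), as log2 fold changes. Without 10 Hz replicate 6 the calls on Mylpf (log2 fold change 0.49, adjusted p = 0.0358), Mybph (log2 fold change 0.52, adjusted p = 0.0683), and Tnnc1 (log2 fold change 0.45, adjusted p = 0.0157) were lost, the first and last by the fold threshold. Those on Mybph and Tnnc1 were also lost without 10 Hz replicate 4 (log2 fold change 0.65, adjusted p = 0.0506 and log2 fold change 0.47, adjusted p = 0.0145) and without control replicate 2 (log2 fold change 0.65, adjusted p = 0.0604 and log2 fold change 0.47, adjusted p = 0.0168). By limma on log2(TPM + 1) all 3 lost their call (log2 fold change 0.44, adjusted p = 0.0247 for Mylpf, log2 fold change 0.52, adjusted p = 0.085 for Mybph, and log2 fold change 0.38, adjusted p = 0.0142 for Tnnc1), Mybph lost it in the fit of the 12 libraries alone, and Tnnc1 with the small RNA share as a covariate (log2 fold change 0.48, adjusted p = 0.00779).

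Among 19 regulators of myogenesis and fusion, 2 were higher and 16 had values above 0 (median 0.22), against 1.24% and 48.9% over all genes. Myog, the factor that starts terminal differentiation, was at 242 to 390.4 CPM in control (median 259) and 275 to 645 CPM at 10 Hz (median 472). Its groups overlapped, 4 of 6 lit libraries lay above every control, and the log2 fold change was 0.62 ± 0.15 (SE, adjusted p = 0.0142), a call lost without 10 Hz replicate 6 (log2 fold change 0.49, adjusted p = 0.0484). Mymx, the small membrane protein that drives myoblast fusion, rose from 39.0 ± 9.32 to 63.1 ± 16.2 CPM (log2 fold change 0.69, adjusted p = 0.0142), while Mymk, its partner, did not pass (log2 fold change 0.24, adjusted p = 0.301). Myod1 just missed the threshold on the adjusted p (log2 fold change 0.77, adjusted p = 0.0548) and passed under 11 of 26 alternatives. Of 30 genes of excitation-contraction coupling, 3 were higher and 28 had values above 0 (median 0.13). Casq2, the calcium-binding protein of the sarcoplasmic reticulum best known from heart, was at 532 to 659.5 CPM in control (median 561) and 715 to 1118 CPM at 10 Hz (median 743). All its lit libraries exceeded all controls (log2 fold change 0.54, adjusted p = 0.0018), and without 10 Hz replicate 6 it fell under the fold threshold (log2 fold change 0.43, adjusted p = 0.00393), as it did with the small RNA share as a covariate (log2 fold change 0.48, adjusted p = 0.0022). Stac3, a protein that couples the voltage sensor to calcium release, rose from 12.2 ± 2.65 to 18.3 ± 3.98 CPM (log2 fold change 0.58, adjusted p = 0.0153), a call lost without 10 Hz replicate 6 (log2 fold change 0.48, adjusted p = 0.0504). Cav3, the muscle caveolin, rose from 40.7 ± 7.84 to 66.3 ± 22.0 CPM (log2 fold change 0.69, adjusted p = 0.0194), a call lost without 10 Hz replicate 4 (log2 fold change 0.60, adjusted p = 0.0611) or 6 (log2 fold change 0.58, adjusted p = 0.0621). In Mymx, Myod1, Stac3, and Cav3 replicates 4 to 6 all lay above replicates 1 to 3 at 10 Hz, while these sets overlapped for Myog and Casq2. The calcium pump Atp2a1 (log2 fold change 0.08, adjusted p = 0.816) and the release channel Ryr1 (log2 fold change 0.18, adjusted p = 0.443) did not pass, and of 19 genes of the acetylcholine receptor and synapse 0 were called. By limma on log2(TPM + 1) the calls on Mymx (log2 fold change 0.55, adjusted p = 0.0615), Myog (log2 fold change 0.49, adjusted p = 0.0675), Stac3 (log2 fold change 0.36, adjusted p = 0.203), and Cav3 (log2 fold change 0.53, adjusted p = 0.0699) were lost, and Myog, Stac3, and Cav3 also lost theirs in the fit of the 12 libraries alone.

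**Figure D4:**
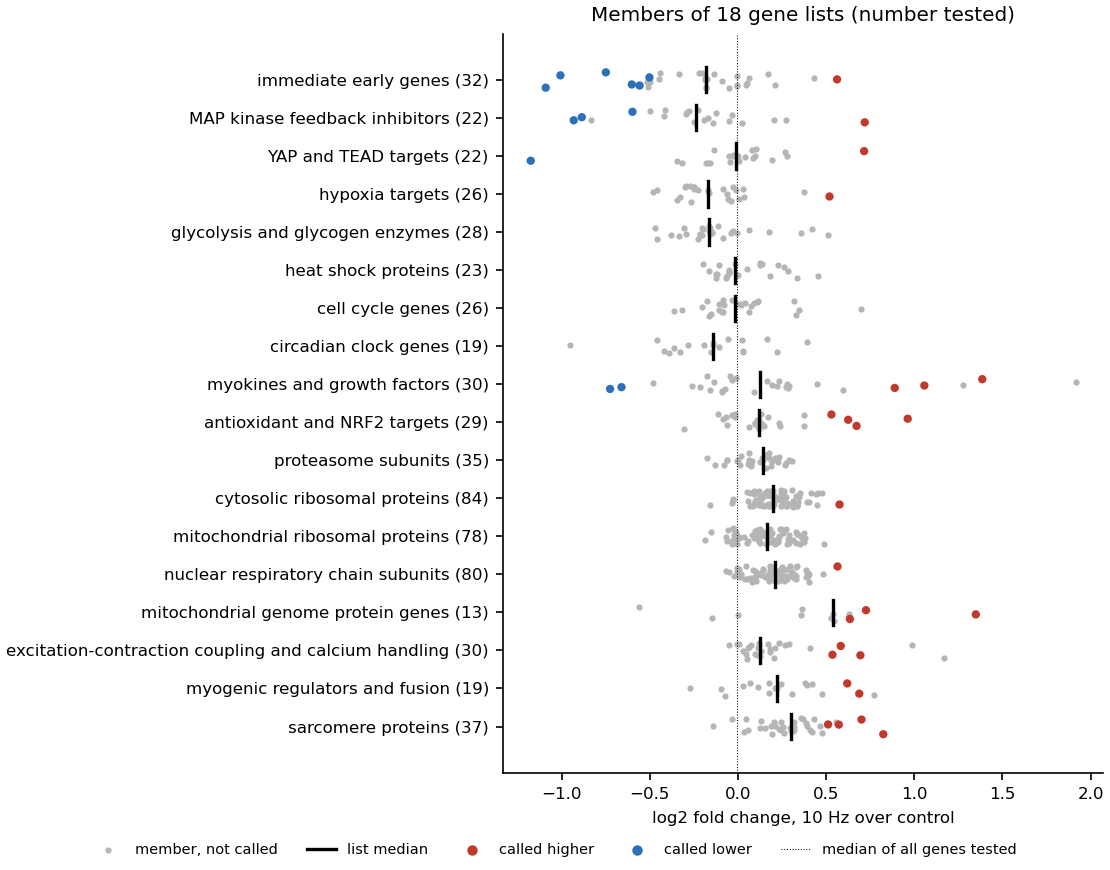
Log2 fold change at 10 Hz over control (x axis) of each tested member of 18 gene lists (rows, number tested in brackets), with called members in color, a bar at each list's median, and a dotted line at the median of all genes. Immediate early genes and MAP kinase feedback inhibitors have medians of -0.18 and -0.24, and sarcomere proteins have a median of 0.30 with 4 called members.

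Genes of energy metabolism were counted next. Of the 13 protein genes of the mitochondrial genome, 3 were higher and 11 had values above 0, with a median log2 fold change of 0.54 that ranged over 0.12 to 0.65 under the alternatives, lowest by DESeq2 with apeglm. mt-Nd6 (ENSMUSG00000064368, a gene of 1 exon on the minus strand of the mitochondrial genome, 13552 to 14070), a subunit of respiratory complex I, was at 21.6 to 41.0 CPM in control (median 32.6) and 43.6 to 129 CPM at 10 Hz (median 80.4). The groups did not overlap and the log2 fold change was 1.35 ± 0.30 (SE, adjusted p = 0.00935), but transcripts of the other strand cover this gene, and, although the kit was directional, the strand setting of the counting was not stated. mt-Nd1, another subunit of complex I, rose from 1029 ± 175 to 1703 ± 574 CPM (log2 fold change 0.73, adjusted p = 0.046) and mt-Cytb, of complex III, from 1298 ± 190.4 to 2016 ± 554 CPM (log2 fold change 0.64, adjusted p = 0.0485). Each of these last calls was lost in 9 of the 12 fits without 1 library (adjusted p up to 0.137 for mt-Nd1 and 0.124 for mt-Cytb), as well as with the small RNA share (log2 fold change 0.65, adjusted p = 0.0782 for mt-Nd1 and log2 fold change 0.60, adjusted p = 0.0741 for mt-Cytb) or the mitochondrial share as a covariate and on the TPM scales, and mt-Co1 did not pass (log2 fold change 0.53, adjusted p = 0.11). Nuclear genes of the respiratory chain had 75 of 80 values above 0 and a median of 0.21 (0.08 to 0.25 over all alternatives), and 1 was called, Ndufb4 of complex I, from 25.3 ± 3.91 to 37.4 ± 5.27 CPM with no overlap (log2 fold change 0.56, adjusted p = 0.00781). The call on Ndufb4 was lost without control replicate 2, its lowest control, by the fold threshold (log2 fold change 0.49, adjusted p = 0.0218), with the mitochondrial share as a covariate (log2 fold change 0.46, adjusted p = 0.00789), and on log2(TPM + 1) without a filter (log2 fold change 0.61, adjusted p = 0.0789). Mitochondrial ribosomal proteins (62 of 78 above 0, median 0.17) and proteasome subunits (29 of 35, median 0.14) had 0 called. Cytosolic ribosomal proteins had 80 of 84 values above 0 and a median of 0.20 (0.07 to 0.28 over all alternatives), and Rps18, the 1 called, rose from 662 ± 78.1 to 984 ± 149 CPM with no overlap (log2 fold change 0.57, adjusted p = 0.00315), a gene whose reads may be shared with processed pseudogenes and whose call was lost on the TPM scales (log2 fold change 0.43, adjusted p = 0.00574 on log2(TPM + 1)). These counts of 1 in 80 and 1 in 84 compare with 1.24% called higher over all genes. The regulator Ppargc1a did not pass the test (log2 fold change -0.05, adjusted p = 0.924), nor did Pdk4 (log2 fold change -0.20, adjusted p = 0.287).

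Glycolysis lay on the other side of 0. Of 28 enzymes and transporters of glycolysis and glycogen 0 were called, but 23 had values below 0 and the median was -0.16 (-0.22 to -0.04 over all alternatives). Hk1, the hexokinase of most tissues (log2 fold change -0.47, adjusted p = 0.00748, no overlap), and the glucose transporter Slc2a1 (log2 fold change -0.46, adjusted p = 0.0286) had the lowest values, and the muscle isoforms Eno3 (log2 fold change 0.42, adjusted p = 0.0213) and Pgam2 (log2 fold change 0.51, adjusted p = 0.0522) had the highest. These 4 are named for their values, and all were under the fold threshold or over that of the adjusted p. Hypoxia targets had a like median (-0.17, 21 of 26 below 0, -0.21 to -0.08 over all alternatives), and 1 was called, higher: Ddit4, an inhibitor of the kinase mTOR (log2 fold change 0.52, adjusted p = 0.0498), which lost its call in 10 of the 12 fits without 1 library (adjusted p up to 0.116), on the TPM scales, and with the small RNA share as a covariate (log2 fold change 0.51, adjusted p = 0.064). Vegfa, the endothelial growth factor, did not pass (log2 fold change -0.01, adjusted p = 0.98).

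Of 29 antioxidant genes and targets of the factor NRF2, 4 rose and 0 fell, against 1.24% and 0.623% over all genes. Hmox1, heme oxygenase, was at 344 to 542 CPM in control (median 496) and 638 to 907 CPM at 10 Hz (median 735). Every lit library of Hmox1 exceeded every control, and the log2 fold change was 0.67 ± 0.11 (SE, adjusted p = 0.000854). Gsta4, a glutathione S-transferase, rose from 84.9 ± 11.2 to 131 ± 19.8 CPM with no overlap (log2 fold change 0.63, adjusted p = 0.000443), Gclc, the enzyme that starts glutathione synthesis, from 58.2 ± 12.2 to 83.8 ± 7.70 CPM with no overlap (log2 fold change 0.53, adjusted p = 0.00516), and Slc7a11, the cystine transporter, from 6.93 ± 2.32 to 13.5 ± 3.28 CPM (log2 fold change 0.96, adjusted p = 0.0182). The call on Gclc was lost by its fold without control replicate 2 (log2 fold change 0.44, adjusted p = 0.0098) or 10 Hz replicate 5 (log2 fold change 0.50, adjusted p = 0.0147) and with the mitochondrial share as a covariate (log2 fold change 0.47, adjusted p = 0.00447). On log2(TPM + 1) neither Gclc (log2 fold change 0.44, adjusted p = 0.0299) nor Slc7a11 (log2 fold change 0.56, adjusted p = 0.0705) was called. Other members did not pass the test, among them Nqo1 (log2 fold change 0.14, adjusted p = 0.44), Gclm (log2 fold change -0.02, adjusted p = 0.961), Srxn1 (log2 fold change 0.11, adjusted p = 0.476), and Gsr (log2 fold change -0.30, adjusted p = 0.0955), and the list's median was 0.12 and lay just below 0 on both log2(TPM) scales with a filter. On those 2 scales the medians of all genes were -0.09 and -0.10.

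Secreted factors moved both ways. Of 30 myokines and growth factors, 3 were higher, Csf1 among them, and 2 were lower, Bdnf and Apln. Over all genes these shares were 1.24% and 0.623%. Il6, a cytokine released by contracting muscle, was at 1.503 to 3.35 CPM in control (median 2.03) and 2.73 to 12.4 CPM at 10 Hz (median 4.58). Replicate 3 stood far above the other lit libraries and 5 of 6 exceeded every control, for a log2 fold change of 1.39 ± 0.32 (SE, adjusted p = 0.0123), which was not called on the TPM scales (log2 fold change 0.77, adjusted p = 0.128 on log2(TPM + 1)) or with thinned counts. Lif, a cytokine of the same family, rose from 4.80 ± 2.19 to 9.12 ± 2.57 CPM (log2 fold change 0.89, adjusted p = 0.0329), a call lost in 6 of the 12 fits without 1 library (adjusted p up to 0.0781) and in that of the 12 libraries alone. Apln, which encodes the peptide apelin, was at 24.9 to 31.5 CPM in control (median 29.5) and 16.2 to 24.8 CPM at 10 Hz (median 17.3). All 6 lit libraries of Apln were below all controls, with replicate 3 highest among them, and the log2 fold change was -0.66 ± 0.13 (SE, adjusted p = 0.00346). Cxcl1 (log2 fold change 1.92, adjusted p = 0.111) and Cxcl5 (log2 fold change 1.28, adjusted p = 0.233), chemokines named here for their size, had large values that did not pass.

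Calls in lists of stress programs are set against 1.24% higher and 0.623% lower over all genes tested. Of 26 ATF4 targets 2 were higher, Slc7a11 and Phgdh, the first enzyme of serine synthesis (log2 fold change 0.53, adjusted p = 0.0369), and 1 was lower, Sesn2, a sensor of leucine (log2 fold change -0.61, adjusted p = 0.0498). Phgdh lost its call in 7 and Sesn2 in 8 of the 12 fits without 1 library (adjusted p up to 0.0862 and 0.219), both lost it on the TPM scales, Phgdh lost it with the small RNA share as a covariate (log2 fold change 0.49, adjusted p = 0.0499), and Atf4 itself did not pass (log2 fold change -0.09, adjusted p = 0.542). Of 24 p53 targets Ddit4 was higher and Sesn2 lower, and Cdkn1a did not pass (log2 fold change 0.07, adjusted p = 0.709). The lists of 23 heat shock proteins (median -0.02), 21 endoplasmic reticulum chaperones (0.02), 17 interferon-stimulated genes (0.00), 24 autophagy and lysosome genes (0.02), and 13 atrophy ligases and FoxO genes (-0.15) had 0 called. Lists of this length are too short for 0 called to be read as a lack of response. Hspa1a, the inducible heat shock protein, was at 52.0 to 91.9 CPM in control (median 73.2) and 8.02 to 210.1 CPM at 10 Hz (median 40.3). The lit libraries of Hspa1a split, with replicates 4 to 6 at or below 22.5 CPM, under every control, and replicates 1 to 3 at or above 58.0 CPM, and the gene did not pass the test (log2 fold change -0.05, adjusted p = 0.968). Reads may be shared with its near-identical copy Hspa1b (log2 fold change -0.16, adjusted p = 0.82). Col6a3 was the 1 collagen chain of 23 to pass, and it fell from 139.8 ± 32.5 to 91.1 ± 11.8 CPM (log2 fold change -0.62, adjusted p = 0.0173), a call lost without control replicate 2 (log2 fold change -0.56, adjusted p = 0.058). Circadian clock genes had 0 of 19 called with a median of -0.14, and Per1 did not pass (log2 fold change -0.36, adjusted p = 0.184). Of 40 lists 21 had 0 called.

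Where 10 Hz stood among the frequencies was tested for the 24 genes named for the size of their change, with the contrasts of 10 Hz against 1 Hz and against 4 Hz in the same fit. These contrasts share the 10 Hz libraries with the comparison above. Small RNAs without a poly(A) tail were 15.7 to 71.2 CPM at 1 Hz and 19.7 to 51.2 CPM at 4 Hz, against 39.1 to 277 CPM at 10 Hz. The fit with this share as a covariate also held these contrasts, but its values for them are not given here. The part of the share in the differences below is therefore not described. Of the 12 genes called lower at 10 Hz, 7 were lower at 10 Hz than at 1 Hz (Egr1, Mertk, Trib1, Dusp1, Klf7, Nedd9, and Bdnf) and 0 were higher. Against 4 Hz, 2 of these 12 were higher at 10 Hz, Ccn1 and Dusp1, and 0 were lower. Egr1 was at 234 ± 32.8 CPM at 1 Hz and 120.3 ± 8.74 CPM at 4 Hz, and 10 Hz differed from 1 Hz by -0.87 ± 0.13 (SE, adjusted p = 1.47e-05) and from 4 Hz by 0.09 ± 0.13 (SE, adjusted p = 0.653) on the log2 scale. Dusp1 took a place between the others, at 73.8 ± 9.52 CPM at 1 Hz, 49.7 ± 11.6 CPM at 10 Hz, and 33.5 ± 4.38 CPM at 4 Hz, with log2 differences of -0.56 ± 0.12 (SE, adjusted p = 0.00101) from 1 Hz and 0.57 ± 0.13 (SE, adjusted p = 0.00226) from 4 Hz. Of the 12 genes called higher at 10 Hz, 1 was lower at 10 Hz than at 1 Hz, Csf1, and 5 were lower than at 4 Hz, Kcnk13, Itgb1bp2, Csf1, Cd36, and Zfp469, and 0 were higher than at either. Prl2c2 was among those not called against either frequency. Its copy Prl2c3, not called against control, was higher at 10 Hz than at 1 Hz (1.41 ± 0.27 (SE, adjusted p = 0.000282)) and at 4 Hz (1.56 ± 0.27 (SE, adjusted p = 0.000368)). Reads may be split between these copies. Csf1 reached 143 ± 36.3 CPM at 1 Hz and 152 ± 32.9 CPM at 4 Hz, log2 differences at 10 Hz of -0.55 ± 0.15 (SE, adjusted p = 0.00648) and -0.64 ± 0.15 (SE, adjusted p = 0.00412). For Kcnk13, Itgb1bp2, and Cd36 the 10 Hz mean covered a lower set, replicates 1 to 3, and a higher set, replicates 4 to 6. Kcnk13 was at 7.69 to 9.70 CPM in the lower set and 18.4 to 24.7 CPM in the higher, and at 24.9 ± 2.40 CPM at 4 Hz. Ccn1 and Dusp1 were split with replicates 4 to 6 the lower, and Csf1 and Zfp469 were not split. Of 3 list genes picked here after their values were seen, Il6 was higher at 10 Hz than at 1 Hz (0.91 ± 0.30 (SE, adjusted p = 0.0206)) and at 4 Hz (1.39 ± 0.31 (SE, adjusted p = 0.00237)), and Casq2 was lower than at 4 Hz (-0.57 ± 0.10 (SE, adjusted p = 0.000259)). The adult and neonatal heavy chains, not called against control, were lower at 10 Hz than at 1 Hz and at 4 Hz, with log2 differences of -1.19 (Myh4, adjusted p = 3.93e-05) to -0.90 (Myh1, adjusted p = 0.00204) against 1 Hz and of -1.14 (Myh2, adjusted p = 0.000184) to -0.73 (Myh4, adjusted p = 0.00746) against 4 Hz. Hmox1 was not called against either (0.19 ± 0.11 (SE, adjusted p = 0.178) and 0.03 ± 0.11 (SE, adjusted p = 0.878)).

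**Figure D5:**
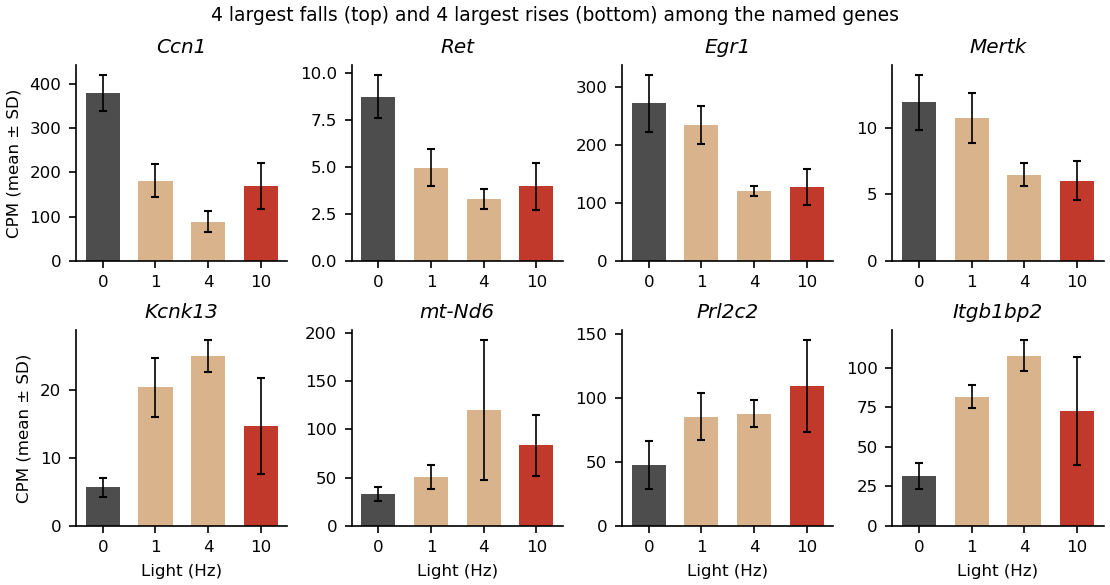
Mean level (CPM, y axis, bars from 0, error bars SD, n = 6 libraries) at 0 (control), 1, 4, and 10 Hz (x axis) of the 4 named genes with the largest falls (top) and rises (bottom) at 10 Hz. Egr1 at 10 Hz stands near its level at 4 Hz and below 1 Hz, and the mean of Kcnk13 at 10 Hz stands below that at 4 Hz. This Kcnk13 mean covers replicates 1 to 3 at 7.69 to 9.70 CPM and replicates 4 to 6 at 18.4 to 24.7 CPM.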

How the data were processed

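RNA was sequenced from 24 tissues, 6 per condition, which the study calls biological replicates. Per the labels, poly(A) RNA was selected, low-input samples, which are not named, were ribodepleted, and libraries were sequenced as paired reads on a Singular G4. The authors processed reads with nf-core/rnaseq (STAR and Salmon, per the submitters' processing notes) against GRCm39. The deposited tables held Salmon estimated counts of 56941 genes, not normalized, and TPM (transcript levels scaled to a fixed sum per library) that the authors had scaled. The library kit was directional, per the study's methods, and the strand setting of the counting was not stated.

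Estimated counts were rounded. edgeR 4.0.16 (R 4.3.3) kept 13318 genes (filterByExpr), which held 99.8% of counts, scaled by TMM, and fitted 1 mean per condition over all 24 libraries. P-values were adjusted by Benjamini-Hochberg over all genes tested, and p-values measure the spread between these libraries. Levels are CPM. Total counts of 4.19 to 12.1 M per library set the counting error of low genes. No pair of libraries within a group was a copy (30 pairs, lowest chi-square per gene 3.25). Composition was compared with 2-sided exact permutation tests.

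Replicate numbers gave no clear sign of pairing by the check given with the alternatives, so no block was used in the main fit. Genes named in the text are the 12 largest changes each way among called genes with a mean of at least 5 CPM and no overlap of groups, predicted genes passed over, called members of 40 gene lists, and a fixed set of muscle and stress genes. The members, lists, and tests were chosen with earlier results of these data known. Alternatives were DESeq2 1.42.0 size factors, total count scaling, no filter or a mean of 5 CPM, DESeq2 without and with apeglm 1.24.0, limma 3.58.1 on log2(TPM + 1) (fold changes there understate the change of low genes) and log2(TPM + 0.1), the 12 libraries alone, a replicate block, thinned counts, small RNA or mitochondrial share as a covariate, no limit on the fold change, and each library left out in turn. Leaving out each library for the other composition measures was added after the data were seen. On simulated data with 200 of 13115 genes changed by a log2 fold change of 1 between 10 Hz and control, edgeR recovered 94.5% with 2.07% of calls false. The changed genes were drawn from those with a mean of at least 5 CPM, and counts were drawn independently for each library. These rates therefore do not carry over to smaller changes, lower genes, or differences shared by libraries within a group. Positions came from GENCODE M39, where 99.8% of tested genes were found by identifier and which may differ from the authors' release.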

Additional observations from a re-analysis of the deposited data

Results flagged for a closer look

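In 19 of 180 groups of 6 libraries (10.6%) 1 library stood apart by Dixon's test, and chance alone gives about 5%. Of the 19, 5 fell on control replicate 2 and 5 on 10 Hz replicate 3.

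Control replicate 2 was the lowest control for Ndufb4 (17.8 CPM, the others 24.9 to 28.8 CPM) and Myh7 (104.0 CPM, the others 126 to 137 CPM). It was the highest control for Sesn2 (91.7 CPM, the others 33.9 to 54.7 CPM), Fbxo32 (59.2 CPM, the others 33.4 to 42.0 CPM), and Txnip (281 CPM, the others 146 to 182 CPM). Fbxo32 encodes a ubiquitin ligase of muscle atrophy and Txnip a binder of thioredoxin that rises with glucose.

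At 10 Hz, replicate 3 was highest for Egr1 (189 CPM, the others 102 to 129 CPM), Il6 (12.4 CPM, the others 2.73 to 5.53 CPM), Apln (24.8 CPM, the others 16.2 to 18.05 CPM), and Fbxo32 (54.8 CPM, the others 35.1 to 41.2 CPM), and lowest for the collagen gene Col1a1 (9.70 CPM, the others 16.6 to 20.4 CPM). Replicate 2 was lowest for Trim63, another atrophy ligase (50.1 CPM, the others 82.9 to 87.6 CPM), and replicate 6 was highest for Myh3 (1041 CPM, the others 467 to 664 CPM).

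Among controls, replicate 5 was lowest for Ube2c (2.79 CPM, the others 5.39 to 6.62 CPM) and on principal component 1 (-25.6, the others -10.5 to -1.79). Replicate 1 was highest for Slc7a11 (11.4 CPM, the others 4.88 to 7.04 CPM), replicate 6 for Casq2 (659.5 CPM, the others 532 to 579 CPM) and Cavin2 (135 CPM, the others 88.0 to 105 CPM), and replicate 4 for Cav3 (55.9 CPM, the others 32.9 to 40.2 CPM) and Cdkn1a (1616 CPM, the others 1212 to 1318 CPM).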

How the results depend on the processing

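Of the 58 named genes called, 23 kept their call in all 26 alternative settings, 35 lost it in at least 1, and 0 changed sign. By DESeq2 with apeglm, the method of the study, 9 lost it: Btg1, Csrnp1, Ddit4, Dusp6, Gclc, Klf10, Phgdh, Sesn2, and Tnnc1. Of the 24 named for the size of their change, 18 kept it in all 26, and the exceptions were Adora2b and Igsf11 (thinned counts), mt-Nd6 (TPM without a filter), Ube2c and Zfp469 (TPM), and Mecom (8 settings). The number of genes higher (165) moved by over 1.5 times to 77, 85, and 52 by limma on log2(TPM + 1), on log2(TPM + 0.1), and on log2(TPM + 1) without a filter, to 97 with only the 12 libraries, to 356 with an adjusted p alone, and to between 92 and 210 without 1 library. The number lower (83) moved to 157 and 172 on the filtered TPM scales, to 49 with only the 12 libraries, to 54 with thinned counts, to 295 with an adjusted p alone, and to between 42 and 116 without 1 library. On those TPM scales all genes had a median of -0.09 and -0.10 (log2 fold change). The ranges of list medians over all alternatives include these scales and are not given relative to those medians. The cause of these shifts was not tested. Total count scaling gave 139 higher and 106 lower, and small RNA share as a covariate gave 124 and 80, of which 120 and 73 were called without it. The difference on principal component 1, with components computed anew each time, was between 1.98 and 20.4 without 1 library. That of the mitochondrial share was between 0.457 and 0.961 percentage points without 1 library, and passed 0.05 without 10 Hz replicate 1 (0.961) or 4 (0.894). Same-numbered libraries of both groups had correlations of deviations between -0.06 and 0.34 (6 pairs), and 2 of 6 10 Hz libraries correlated best with their own number. This gave no clear sign of pairing, and 6 pairs are too few to exclude it. With the replicate block 176 genes were higher and 90 lower, Sesn2 was the 1 named gene to lose its call, and for the mitochondrial share a sign-flip test on the paired differences gave an exact permutation p of 0.0938. Total counts of 4.19 to 12.1 M per library limit the precision of genes with few reads.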

Other observations

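Some further genes called higher were picked after their values were seen and are given as single genes, without a count. Mgst2, a microsomal glutathione S-transferase, was 7.76 ± 0.956 CPM in control and 13.8 ± 3.07 CPM at 10 Hz (SD, n = 6 each, log2 fold change 0.81, edgeR adjusted p = 0.00412, no overlap). Its relative Mgst1 differed by a log2 fold change of 0.68 (edgeR adjusted p = 0.00691), the aldehyde dehydrogenase Aldh3a1 by 0.91 (edgeR adjusted p = 0.00266), the carbonyl reductase Cbr3 by 0.56 (edgeR adjusted p = 0.0176), and the aldose reductase Akr1b3 by 0.53 (edgeR adjusted p = 0.00697). Of genes for proteins of the muscle sarcomere and Z-disc, Csrp3 differed by 0.75 (edgeR adjusted p = 0.00346), Ankrd2 by 0.56 (edgeR adjusted p = 0.0343), Trim55 by 0.65 (edgeR adjusted p = 0.000603), and Pdlim3 by 0.51 (edgeR adjusted p = 0.00637).

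Among genes called lower, also picked after their values were seen, were the kinase gene Sgk1 (277 ± 17.9 CPM in control and 171 ± 30.5 CPM at 10 Hz, SD, n = 6 each, log2 fold change -0.69, edgeR adjusted p = 0.000896), the integrin gene Itgb3 (log2 fold change -0.70, edgeR adjusted p = 0.000603), the syndecan gene Sdc3 (log2 fold change -0.62, edgeR adjusted p = 0.000452), and Rgs2, a regulator of G protein signaling (log2 fold change -1.03, edgeR adjusted p = 0.0196), each with all 6 lit libraries below all controls.

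Levels of the genes called higher differed among the 10 Hz libraries. In 63 of the 165 (38.2%) replicates 4, 5, and 6, the 3 with the lowest small RNA share (39.1 to 101 CPM), all lay above replicates 1, 2, and 3 (113 to 277 CPM), against 9.05% of all genes tested, and in 8 of the 165 they all lay below. Among the 83 genes called lower, 22 (26.5%) had replicates 4 to 6 all below replicates 1 to 3, against 9.08% of all genes tested. The split was chosen after the data were seen, no test was made of it, and the part of the small RNA share in these differences was not tested.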
